A study of Mus musculus with 9 samples.

Results

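The 2'-5'-oligoadenylate synthetase (OAS) family was followed through 9 libraries of hippocampal RNA from adult mice. Its members were the 6 genes whose rows carry the symbols Oas1a, Oas1b, Oas2, Oas3, Oasl1 and Oasl2, out of 31804 genes in the count table, and all 6 are placed on chromosome 5 in that table. The series set out to find genes that depend on Camta1, a calmodulin-binding transcription activator, by lowering its mRNA with short hairpin RNAs (shRNAs). Mice received Camta1 shRNA A or Camta1 shRNA B, which target different sequences of the Camta1 mRNA, and control mice received a non-targeting hairpin, with 3 male C57BL/6NCrl mice in each group. Every mouse, controls included, carried a recombinant adeno-associated virus with a hairpin and the red fluorescent marker mCherry. Mice were 8 weeks old when the virus was placed in the dorsal hippocampus by stereotaxic injection. The mCherry-positive area was dissected 3 weeks later, and its RNA was not sorted by cell, so markers of neurons and of glia were found in every library. In such bulk tissue, more cells of a type and more RNA per cell cannot be told apart.

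OAS enzymes are cytoplasmic sensors of double-stranded RNA. When bound to it they join ATP into short 2'-5'-linked oligoadenylates (2-5A), a second messenger that leads to the decay of viral and cellular RNA. The genes are classic interferon-stimulated genes: they are nearly silent in resting brain, and type I or type II interferon raises them through STAT and IRF transcription factors.

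The members differ in what they do. Oas1a, Oas2 and Oas3 encode synthetases with a single, a double and a triple OAS unit. Oas1b is the mouse gene for resistance to flaviviruses, and in C57BL/6 mice, as in most laboratory strains, a premature stop codon truncates its product. The OAS-like genes Oasl1 and Oasl2 add a ubiquitin-like tail to the OAS unit. Mouse OASL1 lacks synthetase activity and is known to block translation of the Irf7 mRNA, whereas OASL2 can make 2-5A.

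The 6 genes lie in 2 groups on chromosome 5. Oasl2 and Oasl1 are neighbours, and Oas2, Oas3, Oas1b and Oas1a share a cluster with 6 further Oas1 paralogs. Promoter sequences of 4 members, Oas1a, Oas3, Oasl1 and Oasl2, were found in RefSeq on build GRCm38.p6. Those of Oas1a, its paralogs Oas1g and Oas1c, Oas3 and Oasl2 are given because Oasl2 and Oas1g passed the test with shRNA B, Oas1a is the near copy of Oas1g, and Oas1c and Oas3 also hold matches. Each runs over the 120 bases up to the transcription start, 5' to 3' on the gene's strand. Capitals mark GAAA followed by any 2 bases and GAAA again, the core letters of the interferon-stimulated response element, searched on both strands.

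Oas1a, chr5:120907526-120907645, minus strand: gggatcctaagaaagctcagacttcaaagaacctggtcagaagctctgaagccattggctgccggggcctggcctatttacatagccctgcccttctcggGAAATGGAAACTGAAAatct

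Oas1g, chr5:120887614-120887733, minus strand: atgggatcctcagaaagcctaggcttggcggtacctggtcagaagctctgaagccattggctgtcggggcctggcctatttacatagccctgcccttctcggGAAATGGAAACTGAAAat

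Oas1c, chr5:120812515-120812634, minus strand: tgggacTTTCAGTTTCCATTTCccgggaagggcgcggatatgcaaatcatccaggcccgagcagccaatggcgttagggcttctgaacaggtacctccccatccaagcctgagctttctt

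Oas3, chr5:120777660-120777779, minus strand: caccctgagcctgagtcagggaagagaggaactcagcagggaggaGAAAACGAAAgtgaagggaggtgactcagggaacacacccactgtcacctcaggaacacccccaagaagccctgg

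Oasl2, chr5:114896814-114896933, plus strand: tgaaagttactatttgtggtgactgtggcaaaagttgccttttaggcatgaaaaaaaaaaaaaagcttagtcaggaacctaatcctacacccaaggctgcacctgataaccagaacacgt

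Oas1a held 2 overlapping matches, which began 20 and 14 bases before the start, and Oas1g held the same pair 18 and 12 bases before it. Oas1c, which was not called, held an overlapping pair too, on the opposite strand, with first bases at -114 and -108 relative to the start. The promoter windows of Oas1a and Oas1g shared an identical run of 73 bases. Oas3 held 1 match, 75 bases before the start. The windows of Oasl2 and Oasl1 held none of these letters between 250 bases before and 50 bases after the start. Among 32851 promoters of this length, 3.44% held the motif. The shorter TTCNNNGAA, the core of the gamma-activated site, occurred in 8.30% of them and in Oas1a, 98 bases before the start. These matches describe the letters only.

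Libraries held 29123744 to 38189288 counted reads, so 1 read stood for 0.0258 to 0.0339 CPM (counts scaled to a common library size) and counting error is large for most of the family. Camta1 was at 52.2%, 39.4% and 57.6% of the control mean in shRNA A replicates 1, 2 and 3 and at 54.1%, 33.0% and 60.4% in shRNA B replicates 1, 2 and 3, and values below follow this order. The choroid plexus markers, such as Ttr, summed to 29.1 to 45.5 CPM in the 6 hairpin libraries, against 24.0, 30.9 and 1048 CPM in control replicates 1, 2 and 3, so that 1 control library stood apart. The 6 markers of hippocampal principal cells were detected in every group, with a summed level of 921 to 1372 CPM.

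Oasl2 (ENSMUSG00000029561) was the most abundant member and the 1 member of the family that rose past the threshold. Its level was 11.8, 8.14 and 3.14 CPM in the shRNA A libraries and 18.1, 48.7 and 28.0 CPM in the shRNA B libraries, against 2.64, 2.74 and 2.71 CPM in the control libraries. The controls were nearly equal, every shRNA B library was above every shRNA A library, and shRNA A replicate 3 was close to the controls. The means were 7.70 ± 4.35 CPM with shRNA A and 31.6 ± 15.6 CPM with shRNA B, against 2.70 ± 0.0469 CPM in controls (SD, n = 3 each). The lowest shRNA B library was 6.63 times the highest control.

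For shRNA B minus control the log2 fold change of Oasl2 was 3.54 ± 0.57 (SE) with an adjusted p of 0.0454 in edgeR's quasi-likelihood test. For shRNA A minus control it was 1.51 ± 0.60 with an adjusted p of 0.720. Over 17 other settings the shRNA B value stayed between 3.09 and 3.83 on the log2 scale, while its adjusted p ranged from 4.76e-08 to 0.215. The call was lost without control replicate 1, 2 or 3 (adjusted p = 0.215, 0.170 and 0.115), without shRNA A replicate 1 or 2 (0.0601 and 0.0953) and without shRNA B replicate 2 or 3 (0.0675 and 0.101), all in edgeR. It was also lost with no filter on low counts (0.0757), with only the groups compared in the fit (0.0612) and with the replicate number as a block (0.0656), so that 10 of the 17 settings ended it.

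Oasl1 (ENSMUSG00000041827) showed the same order of groups at a far lower level. It had 0.479, 0.868 and 0.0982 CPM in shRNA A libraries and 0.620, 2.07 and 1.16 CPM in shRNA B libraries, against 0.102, 0.0636 and 0.0944 CPM in controls. The control values rest on 3, 2 and 3 reads, and shRNA A replicate 3 also had 3 reads. Its log2 fold change was 3.82 ± 0.77 for shRNA B minus control, with an adjusted p of 0.0508, just outside the threshold of 0.05. The adjusted p ranged from 7.99e-05 to 0.209 over 17 other settings, 7 of which called the gene. For shRNA A minus control it was 2.43 ± 0.89 with an adjusted p of 0.685 in the same edgeR test.

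**Figure D1:**
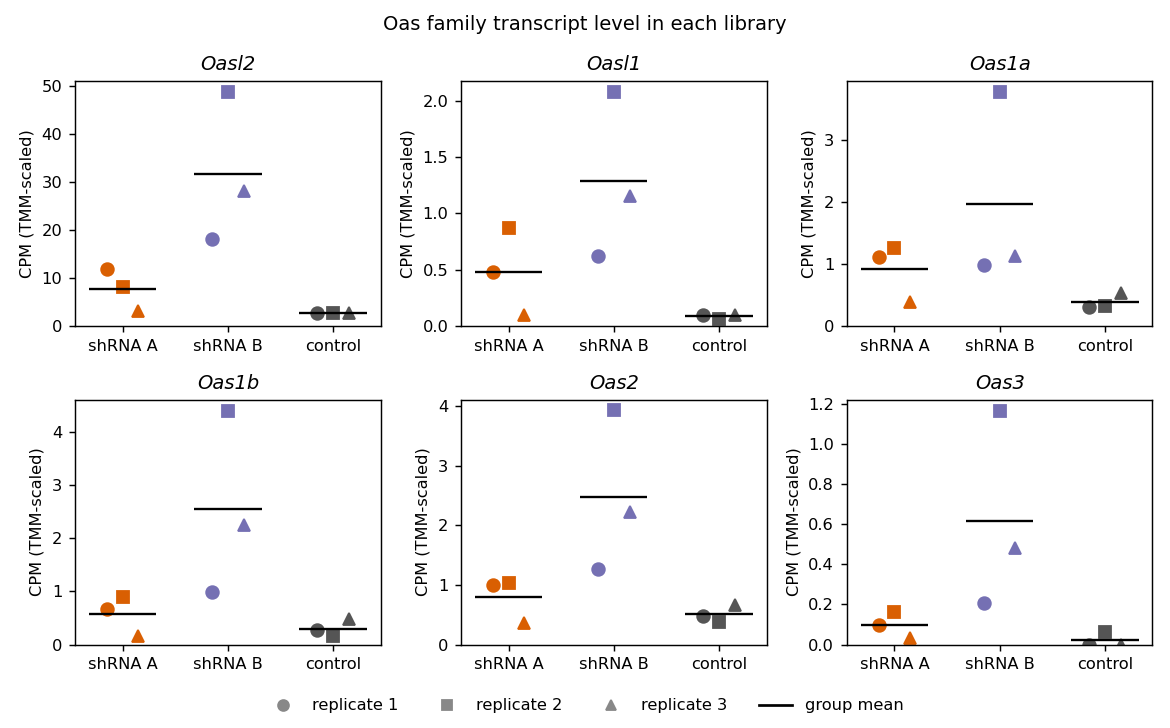
Level of each Oas member in every library, in CPM scaled by the trimmed mean of M-values (TMM), with a linear axis of its own for each gene; points are libraries, their shape gives the replicate number and bars give group means. In all 6 panels shRNA B replicate 2 is the highest point and the 3 shRNA B points lie above the 3 control points.

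Among the synthetases proper, Oas2 (ENSMUSG00000032690) came closest to the threshold. Its level was 0.990, 1.03 and 0.360 CPM with shRNA A and 1.27, 3.93 and 2.22 CPM with shRNA B, against 0.475, 0.382 and 0.661 CPM in controls. The shRNA B libraries were again apart from both other groups, and shRNA A replicate 3 was below all controls. The log2 fold change was 2.27 ± 0.48 for shRNA B minus control (edgeR adjusted p = 0.0578) and 0.65 ± 0.54 for shRNA A minus control (adjusted p = 0.833). With shRNA B the adjusted p of Oas2 ranged from 0.000184 to 0.240 over 17 other settings.

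Oas1b (ENSMUSG00000029605), listed as a polymorphic pseudogene in GENCODE, had 0.671, 0.900 and 0.164 CPM with shRNA A and 0.982, 4.40 and 2.25 CPM with shRNA B, against 0.271, 0.159 and 0.472 CPM in controls. Oas1a (ENSMUSG00000052776) had 1.12, 1.25 and 0.393 CPM with shRNA A and 0.982, 3.77 and 1.13 CPM with shRNA B, against 0.305, 0.318 and 0.535 CPM in controls. For Oas1a the shRNA A and shRNA B libraries overlapped, and shRNA B replicate 2 stood alone at the top. The log2 fold change for shRNA B minus control was 3.05 ± 0.71 for Oas1b and 2.31 ± 0.65 for Oas1a, with edgeR adjusted p-values of 0.106 and 0.171. For shRNA A minus control the values were 0.93 ± 0.83 and 1.24 ± 0.70, with adjusted p-values of 0.851 and 0.764. Reads of Oas1a are uncertain, because 57.6% of the 50-base stretches of its transcript also occur in Oas1g, in runs of up to 526 bases. In Oas1b 3.42% and in Oas3 0.792% of such stretches occur in another gene, and in Oas2, Oasl1 and Oasl2 none do.

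Oas3 (ENSMUSG00000032661) was too low for the filter and had no test in the model. It was counted 3, 5 and 1 times with shRNA A and 8, 37 and 15 times with shRNA B, against 0, 2 and 0 times in controls. Each shRNA B library had more reads than any other library. Summed over libraries and scaled for depth, the ratio to control was 4.49 with shRNA A (95% exact interval 0.929 to 42.7) and 27.4 with shRNA B (7.25 to 231), and these intervals cover counting error only. An exact two-sided permutation test of CPM gave p = 0.2 for shRNA A and p = 0.1 for shRNA B, and 0.1 is the smallest p that 3 against 3 libraries allow. All 6 hairpin libraries against the 3 controls gave p = 0.155 in the same exact test, where 0.0119 was the smallest possible. Without the filter, edgeR gave Oas3 a log2 fold change of 4.58 ± 0.97 for shRNA B minus control with an adjusted p of 0.0468, and in that fit it was the 1 member called. With the filter and 1 library fewer it was tested in 7 fits, where the adjusted p reached 0.239, 0.154 and 0.162 as control replicate 1, 2 or 3 was left out, and 0.0110 as shRNA B replicate 1 was. Without control replicate 2, which holds the only control reads, the fitted log2 value was 7.28, a size that depends on the prior count and is no bound.

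The family was thus called once among the contrasts at the chosen threshold. With shRNA B 1 of 5 members tested was called higher, where 0.779% of the 16438 genes tested were called higher and 1.02% in either direction. All 5 had an unadjusted p under 0.05, as did 12.8% of genes, and all 5 log2 fold changes were above 0, as were 50.3% of genes. DESeq2 called all 5, with 2.44% of the 15788 genes it gave an adjusted p, and limma-voom called 1, with 0.578% of genes. Oasl1 reached the level of the filter in 0 controls and Oas1a and Oas1b in 1 each, so counts over these 5 describe them and support nothing. With shRNA A edgeR called 0 of 5, against 0.0243% of all genes. There 2 members, Oasl1 and Oasl2, had an unadjusted p under 0.05 (6.9% of genes), DESeq2 called 0 members and 0.262% of genes, limma-voom called 0 members and 0% of genes, and all 5 values were above 0 (50.1% of genes). For the mean of both hairpins minus control edgeR called 0 of 5, against 0.0973% of all genes, although all 5 had an unadjusted p under 0.05 (10.4% of genes) and a value above 0 (50.5% of genes), and DESeq2 called 5, with 1.54% of its genes. The log2 values of that mean ran from 1.46 for Oas2 to 3.12 for Oasl1, with adjusted p-values between 0.175 and 0.370. Both comparisons use the same control libraries and are given side by side for that reason. The median log2 fold change of all genes tested was 0.00 in each contrast.

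**Figure D2:**
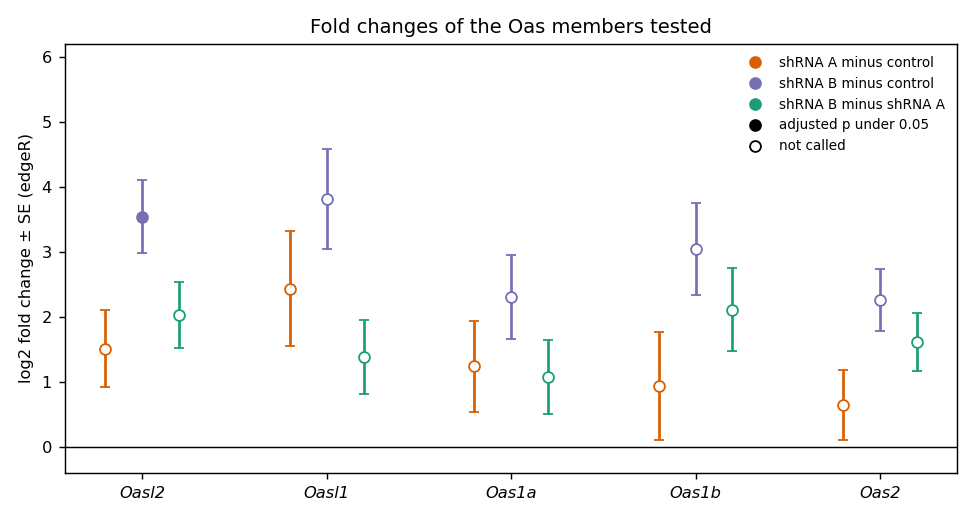
Log2 fold change of the 5 members tested by edgeR, with bars of 1 SE, for each hairpin minus control and for shRNA B minus shRNA A; filled points have an adjusted p under 0.05. Oasl2 for shRNA B minus control, at 3.54, is the only filled point, and every point lies above 0.

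The number of calls changed as single libraries were left out, in the family as over all genes. With every library in, edgeR called 167 genes for shRNA B minus control. Each fit without a library had a replicate fewer in its group. Its filter, set by the smallest group, asked for fewer libraries, so the genes tested differed as well. Without shRNA B replicate 1, the lowest of its group, edgeR called 5 members, among them Oas3, which then passed the filter, but not Oas1a, and 217 genes in all. Without shRNA A replicate 3 it called 3 (Oasl2, Oasl1 and Oas2), of 134 genes. Without shRNA A replicate 2 it called 1, and that was Oasl1 with an adjusted p of 0.0416, of 98 genes. It called 0 members without control replicate 1, 2 or 3, where it called 13, 23 and 19 genes. It also called 0 members without shRNA A replicate 1, shRNA B replicate 2 or shRNA B replicate 3, where it called 103, 62 and 151 genes. The direction held in each of these fits.

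**Figure D3:**
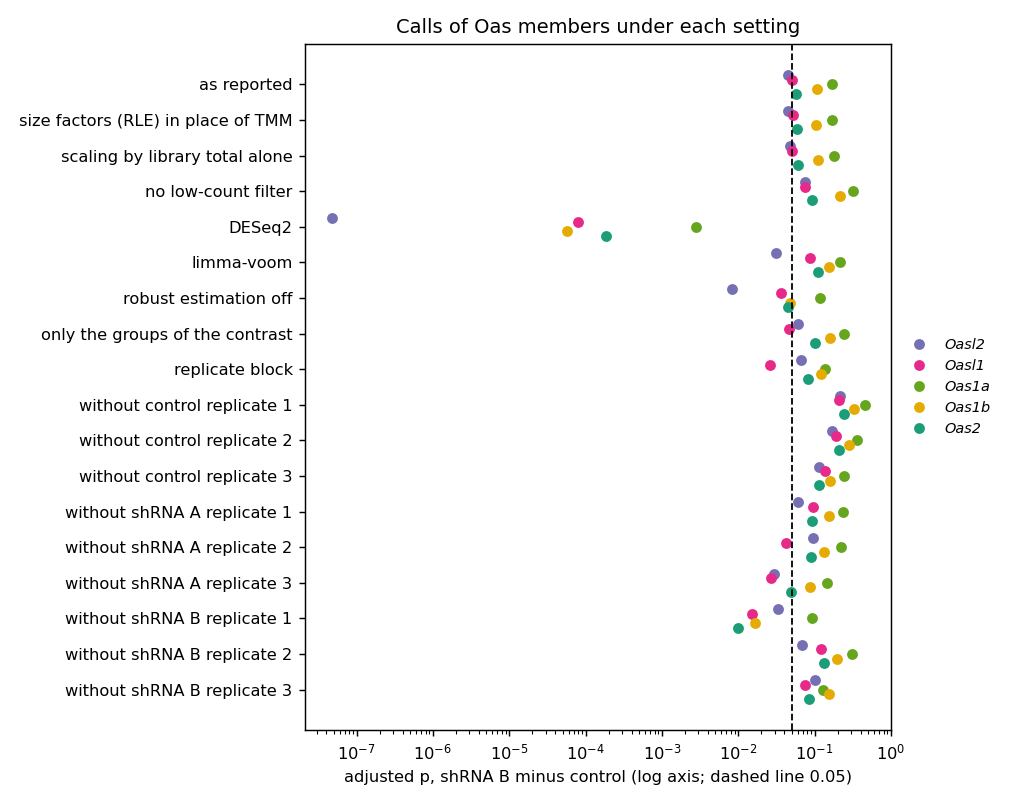
Adjusted p of the 5 members tested, for shRNA B minus control, in the fit as reported and in each other setting, on a log axis with a dashed line at 0.05. The points of edgeR and limma-voom lie on both sides of the line, between 0.00834 and 0.452, while those of DESeq2 lie between 4.76e-08 and 0.00283.

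The difference between the hairpins was tested by itself. For shRNA B minus shRNA A the log2 value was 2.03 ± 0.50 for Oasl2, with a 95% interval of 0.84 to 3.22. It was 2.11 ± 0.64 for Oas1b, 1.62 ± 0.45 for Oas2, 1.39 ± 0.57 for Oasl1 and 1.07 ± 0.57 for Oas1a, whose interval of -0.21 to 2.35 includes 0. Without shRNA B replicate 2 the values were 1.58 for Oasl2, 1.45 for Oas1b, 1.12 for Oas2, 0.85 for Oasl1 and 0.19 for Oas1a, so that 1 library carried most of the difference of Oas1a. Adjusted over all genes, edgeR called 0 members, with adjusted p-values of 0.304 to 0.617, and 0% of all genes. At an unadjusted p under 0.05 it had 4 members and 9.34% of all genes. DESeq2 called 3 members here (Oasl2, Oas1b and Oas2), with 0.764% of its genes. All 5 values were thus higher with shRNA B than with shRNA A, a direction held by 50.5% of genes, and none passed the edgeR test across genes.

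The members moved together from library to library. In all 6, shRNA B replicate 2 was higher than replicate 3 and replicate 3 higher than replicate 1, an order found in 16% of all genes tested. For Oas1a, replicates 1 and 3 had 38 and 35 reads, so their order came from scaling for depth. In all 6, shRNA A replicate 3 was the lowest of its group, as in 37.4% of genes. It did not exceed the highest control in 5 of 6, the exception being Oasl2, as in 69.3% of genes. The other 2 shRNA A libraries were above all controls in 6 of 6 (11.8% of genes), and the 3 shRNA B libraries were above all controls in 6 of 6 (9.27% of genes). The shRNA B libraries were above all shRNA A libraries in 4 of 6, not in Oas1a and Oasl1 (7.29% of genes). For Oas3 the shRNA A values rest on 3, 5 and 1 reads, so its place in these orders is within counting error.

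The spread inside a group was wide. The highest shRNA B library was 2.68 times the lowest for Oasl2 and 5.62 times for Oas3. The highest control was 1.03 times the lowest for Oasl2 and 2.97 times for Oas1b. Among shRNA A libraries Camta1 was lowest in replicate 2 (39.4% of control) and highest in replicate 3 (57.6%), and 5 of 6 members, all but Oasl2, had the reverse order, replicate 2 above replicate 1 above replicate 3, as did 16.4% of genes. Among shRNA B libraries Camta1 was lowest in replicate 2 (33.0%), where the family was highest, but highest in replicate 3 (60.4%), where the family was in the middle. With 3 libraries a group, any relation of the family to the remaining Camta1 was not tested.

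Per kilobase of transcript, Oasl2 made up most of the family in every group. It stood at 2.46 ± 1.39 CPM per kilobase with shRNA A and 10.1 ± 4.99 with shRNA B, against 0.863 ± 0.0150 in controls (SD, n = 3 each). That was 66.8% of the summed family level with shRNA A, 74.1% with shRNA B and 62.2% in controls. The ranges of this share, 58.5% to 72.3%, 70.3% to 77.3% and 53.6% to 68.9%, overlapped between shRNA A and either other group, and those of shRNA B and controls did not. In control libraries the next levels were 0.205 CPM per kilobase for Oas1a, 0.164 for Oas1b and 0.128 for Oas2, with SDs of 0.0685, 0.0866 and 0.0359, and neighbours in this order differed by less than the larger SD of the pair. Oasl1 at 0.0397 and Oas3 at 0.00449 were lowest. With shRNA B the order below Oasl2 was Oas1b at 1.39, Oas1a at 1.04, Oas2 at 0.624, Oasl1 at 0.589 and Oas3 at 0.131 CPM per kilobase, and from Oas1b to Oasl1, with SDs of 0.943, 0.833, 0.341 and 0.337, each step between neighbours was smaller than the larger SD of the pair.

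The other Oas1 paralogs of the cluster ranged from no reads to the level of some members. Oas1d, Oas1e and Oas1f had 0 reads in all 9 libraries, and Oas1h had at most 2. Oas1g, a near copy of Oas1a, was counted 7, 3 and 2 times with shRNA A and 15, 16 and 12 times with shRNA B, against 0, 3 and 0 times in controls. The ratio of its summed, depth-scaled counts to control was 13.1 with shRNA B (95% exact interval 4.19 to 65.9) and 3.99 with shRNA A (1.08 to 22.0). It was called for shRNA B minus control, with an edgeR log2 fold change of 3.56 ± 0.72 and an adjusted p of 0.0422, but reads of Oas1a and Oas1g cannot be separated over their shared stretches. Oas1g reached the level of the filter in the shRNA B libraries alone, so this call describes it and supports nothing. The call of Oas1g was lost in 10 of 16 other settings, among them without any control (adjusted p of 0.161, 0.0559 and 0.114 without replicates 1, 2 and 3) and without any shRNA B library (0.0548, 0.132 and 0.0583), and DESeq2 gave it no adjusted p. Without control replicate 2, the 1 control with reads, its fitted log2 value was 6.77. Oas1c, at 0.976 ± 0.376 CPM with shRNA B and 0.474 ± 0.0316 CPM in controls, had a log2 value of 1.01 ± 0.36 and an adjusted p of 0.258. Its control mean, not scaled for length, lay above those of Oas1a (0.386 CPM), Oas1b (0.301), Oasl1 (0.0866) and Oas3 (0.0212). It lay below those of Oas2 (0.506 CPM) and Oasl2 (2.70). The nearest other genes, 3 tested on either side of each group, such as Git2, Sppl3, Rph3a and Ptpn11, had log2 values between -0.16 and 0.18 for shRNA B minus control, with edgeR adjusted p-values of 0.473 to 0.984. These flanking genes were chosen after the family's values were seen.

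Of genes that regulate or break down the 2-5A signal, 4 are described. Abce1, a regulator of its read-out, averaged 77.8 ± 6.95 CPM with shRNA A and 79.3 ± 4.03 CPM with shRNA B, against 82.1 ± 5.14 CPM in controls (SD, n = 3 each). Akap7, whose product can break down 2-5A, averaged 26.9 ± 0.771 CPM with shRNA A and 28.1 ± 2.05 CPM with shRNA B, against 27.9 ± 2.80 CPM in controls. Both genes differed from control by less than the control SD. Enpp1 and Pde12 encode further enzymes that can break down 2-5A. Over the 4 genes the log2 values for shRNA B minus control lay between -0.05 and 0.18, against 3.54 for Oasl2. With either hairpin edgeR called 0 of the 4, 0 had an unadjusted p under 0.05 and DESeq2 called 0.

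Genes listed with the sensors of foreign nucleic acid, not all of them sensors themselves, rose in part with shRNA B. Of 12 listed, edgeR called 5 higher and 0 lower, with a median log2 fold change of 0.55, against 0.779% of all genes called higher. DESeq2 called 6 of them, with 2.44% of its genes, and limma-voom 2, with 0.578% of genes. The list was chosen with earlier results of these data known, so its share of calls describes it and supports nothing. Ifih1, which encodes the long double-stranded RNA sensor MDA5, had 3.86, 4.41 and 3.47 CPM with shRNA A and 6.72, 12.3 and 9.23 CPM with shRNA B, against 2.54, 2.99 and 3.78 CPM in controls. Its shRNA B libraries stood above all others, with a log2 fold change of 1.59 ± 0.22 (adjusted p = 0.0109). Trim25, a ubiquitin ligase of the RIG-I pathway, had 0.85 ± 0.12 (adjusted p = 0.0109) and Dhx58, which encodes LGP2, had 1.49 ± 0.28 (adjusted p = 0.0323). Eif2ak2, the RNA-activated kinase PKR, had 0.86 ± 0.17 (adjusted p = 0.0369). Zbp1, a sensor of Z-form nucleic acid with 5 reads in all controls together, had 4.61 ± 0.87 (adjusted p = 0.0443). Every control was below the level of the filter for Zbp1, which passed through the hairpin libraries, so its call describes it and supports nothing. Of the 5 genes called, edgeR kept 0 without control replicate 1, Trim25 alone without control replicate 2 and Ifih1 alone without control replicate 3. It kept Trim25 and Ifih1 without shRNA B replicate 2, and 3 to 5 genes without any other library. With shRNA A edgeR called 0 of the 12, with a median of 0.16; 1 had an unadjusted p under 0.05 and DESeq2 called 0.

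Interferon transcripts of the ligands listed were not detectable at this depth. Of 16 ligand and receptor symbols 14 were in the table, and the 8 ligands among them, such as Ifnb1, Ifna2, Ifna4 and Ifng, had 0 reads in all 9 libraries, where 3 reads would have been 0.0775 to 0.102 CPM. The receptor gene Ifnlr1 was too low to test, with 3, 3 and 2 reads with shRNA A and 3, 0 and 0 reads with shRNA B, against 4, 6 and 6 reads in controls. The receptors Ifnar1, Ifnar2, Ifngr1, Ifngr2 and Il10rb were tested, and edgeR and DESeq2 called 0 of 5 with either hairpin, none with an unadjusted p under 0.05. Among 15 signal transducers and regulators edgeR called 4 higher with shRNA B and 0 lower, with a median of 0.36, against 0.779% of all genes called higher. DESeq2 called 6 of the 15, with 2.44% of its genes, and limma-voom 3, with 0.578% of genes. This list was chosen with earlier results of these data known, so its share of calls describes it and supports nothing. The edgeR calls were Irf8 (0.72 ± 0.12, adjusted p = 0.0217), Stat2 (0.67 ± 0.11, adjusted p = 0.0239), Irf9 (1.18 ± 0.21, adjusted p = 0.0379) and Usp18 (2.83 ± 0.49, adjusted p = 0.0391). Without control replicate 1, 2 or 3 edgeR called 0 of these 4, and without any other library it called 2 to 4. Stat2 and Irf9 encode parts of the ISGF3 factor that binds the response element, and Usp18 restrains the type I interferon receptor. Irf7, whose mRNA is the known target of OASL1 in mouse, had 2.81 ± 0.60 with an adjusted p of 0.0977. With shRNA A edgeR called 0 of the 15, with a median of 0.15; 1 had an unadjusted p under 0.05 and DESeq2 called 0.

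**Figure D4:**
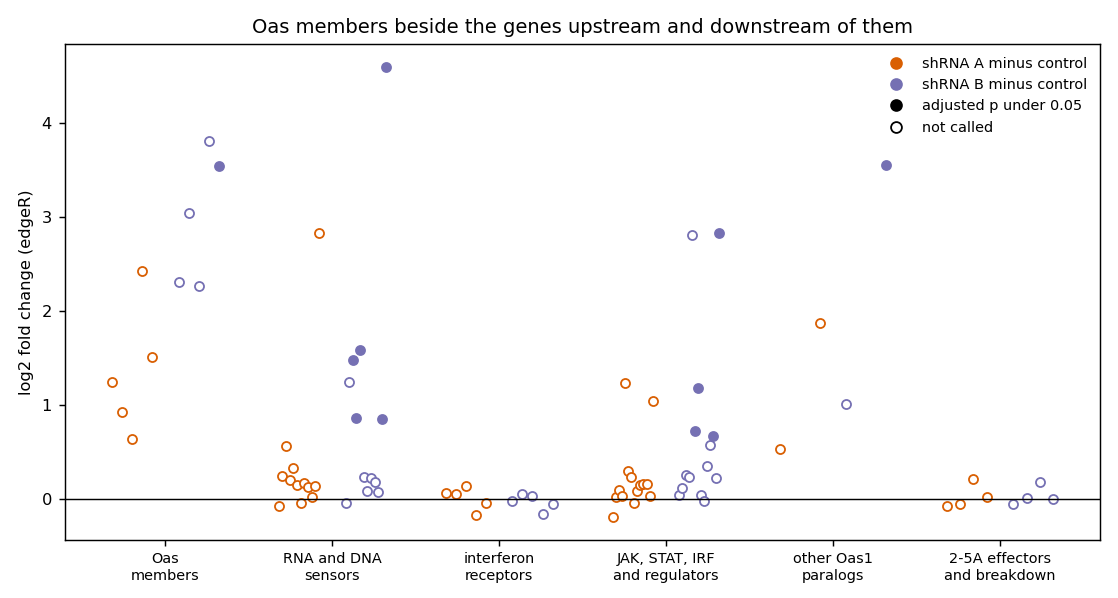
Log2 fold change in edgeR of the Oas members tested and of the genes described from 5 related lists, for each hairpin minus control; each point is a gene, filled where its adjusted p is under 0.05. With shRNA B 5 genes of the sensor list, 4 transducers or regulators, Oas1g and Oasl2 are filled. Receptors and 2-5A effectors lie near 0, and no shRNA A point is filled.

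The genes whose profile over the 9 libraries was closest to the mean of the 5 members tested were known interferon-stimulated genes. Likeness was the root mean square difference of log2 CPM relative to the control mean, over 14513 genes with a median difference of 1.75. Irf7 was closest at 0.16, then Ifi44 at 0.22, Usp18 at 0.23, Rsad2 at 0.31, Ddx60 at 0.35, Ifit3 at 0.37, Isg15, Ifit1 and Ifi27l2a at 0.38 and H2-Q7 at 0.39. Irf7 had 4.41, 5.31 and 1.96 CPM in shRNA A libraries and 5.01, 20.1 and 9.84 CPM in shRNA B libraries, against 1.42, 1.46 and 2.05 CPM in controls. It had the order of the Oas genes among the shRNA B libraries and the low value of shRNA A replicate 3. The 10 genes were picked for likeness over these same libraries, so this shared shape follows from the choice. The members themselves lay between 0.29 (Oas1b) and 0.53 (Oasl2) from their own mean.

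**Figure D5:**
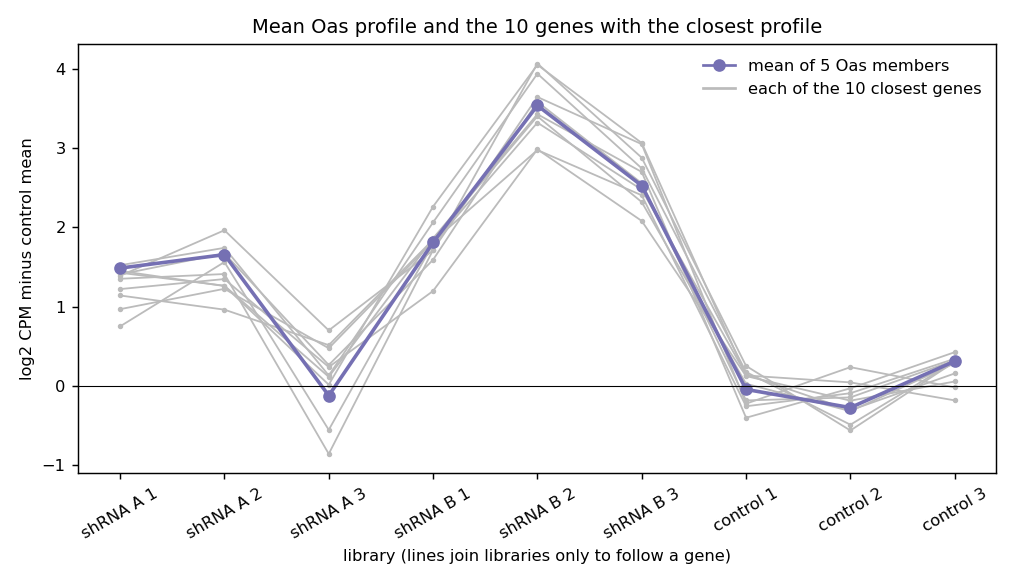
Mean profile of the 5 Oas members tested (thick line) and of the 10 genes with the closest profile (grey lines), as log2 CPM minus the control mean in each library. The family mean lies at 1.81, 3.54 and 2.53 in the shRNA B libraries and at 1.49, 1.66 and -0.12 in the shRNA A libraries. The 10 genes, picked for this closeness, share the dip at shRNA A replicate 3 and the peak at shRNA B replicate 2.

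Some markers of microglia, the resident immune cells of the brain, also rose with shRNA B. Of 12 markers 11 had a positive log2 fold change for shRNA B minus control, with a median of 0.21, as did 50.3% of all genes. Of the 12, edgeR called 3 higher, against 0.779% of all genes: the complement genes C1qa, C1qb and C1qc, at 0.66, 0.62 and 0.61. Without control replicate 1 or 3 only C1qc of these 3 was called, without control replicate 2 C1qa and C1qc, and without any other library all 3. With shRNA A 11 of 12 were above 0 too (median 0.15, 50.1% of genes) and edgeR called 0. There 4 had an unadjusted p under 0.05 (6.9% of genes), against 8 with shRNA B (12.8% of genes). For shRNA B minus shRNA A 9 of 12 were above 0 and edgeR called 0. The summed level of all 12 markers was 597 to 678 CPM with shRNA A and 674 to 752 CPM with shRNA B, against 564 to 603 CPM in controls, and none was at 0. Within shRNA B the sums were 674, 733 and 752 CPM in replicates 1, 2 and 3, and the family was highest in replicate 2. In shRNA A they were 678, 597 and 654 CPM. The part of microglia in the family's values was not tested.

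Markers of lymphocytes and monocytes summed to 1.90 to 2.94 CPM with shRNA A and 1.79 to 3.38 CPM with shRNA B, against 2.30 to 2.41 CPM in controls. Only 1 of the 12, Ly6c2, was high enough to test, and its log2 value was -0.21 for shRNA B minus control. Ms4a1 had 0 reads in both hairpin groups, and Cd3g had 0 reads with shRNA A and in controls and 5 reads in all with shRNA B. Ly6c2 held most of these reads, with 66, 44 and 69 reads with shRNA A and 71, 10 and 76 reads with shRNA B, against 57, 54 and 54 reads in controls. The other 11 markers, split off after the values were seen, summed to 0.830, 0.482 and 0.523 CPM with shRNA A and 0.620, 1.48 and 0.933 CPM with shRNA B, against 0.475, 0.605 and 0.598 CPM in controls. This sum was highest in shRNA B replicate 2, where the Oas genes were highest too, while Ly6c2 was lowest there. The markers at 0 among these 11 numbered 4, 4 and 7 in shRNA A libraries and 4, 1 and 1 in shRNA B libraries, against 6, 4 and 4 in controls. Astrocyte markers summed to 2903 to 3200 CPM with shRNA A and 2881 to 3037 CPM with shRNA B, against 2872 to 3046 CPM in controls. With shRNA B edgeR called 1 of 8 higher, Aldh1l1, against 0.779% of all genes, though not without control replicate 1 or 3 (adjusted p of 0.0713 and 0.0544). The other astrocyte markers mostly went the other way: 2 of 8 log2 values were above 0 and 6 below with shRNA B (median -0.04). With shRNA A 6 were above 0 and 2 below (median 0.04). With shRNA B 4 had an unadjusted p under 0.05 in edgeR (12.8% of genes), and DESeq2 called 3 (2.44% of its genes). Oligodendrocyte markers ranged from 4197 to 6566 CPM with shRNA A and from 3378 to 6897 CPM with shRNA B, against 2976 to 4873 CPM in controls. Of these markers edgeR and DESeq2 called 0 of 7, none with an unadjusted p under 0.05. All 7 log2 values were above 0 with either hairpin (median 0.43 with shRNA A and 0.34 with shRNA B), as were 50.1% of genes with shRNA A and 50.3% with shRNA B. Neuron markers summed to 7069 to 7297 CPM with shRNA A and 7054 to 7423 CPM with shRNA B, against 7195 to 8313 CPM in controls. All 8 had a log2 value below 0 with either hairpin (median -0.06 with shRNA A and -0.10 with shRNA B), where 50.1% and 50.3% of genes were above 0. Of the 8, edgeR and DESeq2 called 0, and 1 had an unadjusted p under 0.05 with shRNA A (6.9% of genes) and 0 with shRNA B (12.8% of genes). Whether these cells bear on the family was not tested.

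The authors' deposited table, from a likelihood ratio test over the 3 groups, gives the same directions. It lists log2 fold changes for Oasl2 of 1.52 with shRNA A and 3.55 with shRNA B, with an adjusted p of 5.41e-07. In the authors' deposited table the adjusted p is 2.69e-05 for Oas1b, 9.61e-05 for Oas2 and 0.00982 for Oas1a, where 2.51% of 15093 genes with an adjusted p are under 0.05. For Oasl1 and Oas3 the authors' deposited table gives p-values of 7.24e-07 and 5.69e-06 and no adjusted p.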

How the data were processed

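RNA was measured by polyA RNA-seq from 1.5 µg of total RNA, without strand. Raw read counts per Ensembl gene were deposited by the authors, per the file headers. Build mm9, HTSeq 0.6.1, TopHat 1.4.1 and SAMtools 0.1.19 appear in the submitters' processing notes, as do R 3.1.1 and DESeq2 1.4.5; of the gene annotation behind the counts, the sources used here give nothing. The deposited table further holds, per the file headers, a mean normalized signal, a log2 fold change for either hairpin with a standard error, a score (the test statistic), a p-value and an adjusted p-value.

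The deposited counts went unchanged into edgeR 4.0.16 (R 4.3.3). The function filterByExpr kept genes with enough reads (about 10 reads, or 0.320 CPM, in at least 3 libraries), which left 16438 of 31804 genes and 5 of 6 members. Of the 5, Oasl1 reached this level in 0 controls, and Oas1a and Oas1b in 1, so they passed through the hairpin libraries. Libraries were scaled by TMM. The quasi-likelihood test was fitted robustly to all 9 libraries with 3 group means. The Benjamini-Hochberg adjustment ran over all genes tested, with a threshold of 0.05. All tests are two-sided. The SE is the log2 fold change divided by the square root of F. The common biological coefficient of variation was 9.45%. Levels are TMM-scaled CPM.

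Alternatives were other scalings (RLE size factors, library totals), no filter, DESeq2 1.42.0, limma-voom (limma 3.58.1), non-robust estimation, a fit of only the groups compared, the replicate number as a block, and leaving out each library. They were run for the members and the counts of calls and, added after the data were seen, for the listed genes called. An adjusted p that DESeq2 does not give counts as missing. Members and gene lists were chosen with earlier results of these data known. Of the listed genes, 2 are not reported here by name and not drawn. All members were named. Of each list, up to 4 genes called, by smallest adjusted p, were named, and those whose role the account needs. Zbp1, the fifth gene called of the sensor list, is named too. Closest profiles were sought among genes averaging 1 CPM or more, with a prior count of 2. Transcript lengths, shared 50-base stretches and exon overlaps came from GENCODE M21 (GRCm38), using the longest protein-coding transcript, or for Oas1b its annotated transcript; promoters came from RefSeq. Exons of Oasl1 overlap an antisense gene by 38 bases, and without strand those reads cannot be told apart. Libraries of a group differed beyond counting noise (chi-square per degree of freedom 8.32 to 22.1). On simulated counts the test was checked before use, with changes planted only in genes averaging 1 CPM or more. The check thus did not cover Oasl1, which averages less, or Oas3, which the filter drops. The labels state 3 animals per group, and p-values measure the spread between these libraries.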

Additional observations from a re-analysis of the deposited data

How the results depend on the processing

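No log2 fold change of the 5 members tested, of the listed genes called for shRNA B minus control, or of Irf7 and Oas1c changed sign in the settings run for it; those of the listed genes were added after the data were seen. The 1 member called for shRNA B minus control became 5 with DESeq2, 4 without robust estimation and 0 to 5 when single libraries were left out. For the mean of both hairpins DESeq2 called 5 members and for shRNA B minus shRNA A 3, against 0 and 0 as reported; for shRNA A no setting called a member. The genes called for shRNA A minus control, 4 as reported, were 9 without a filter, 43 with DESeq2, 0 with limma-voom, 2 without robust estimation, 18 with only the groups compared and 0 to 10 without single libraries. For shRNA B minus control, 167 became 386 with DESeq2, 95 with limma-voom, 42 with only the groups compared and 13 to 217 without single libraries. For the mean of both hairpins, 16 became 67 without a filter, 243 with DESeq2 and 1 to 52 without single libraries; 12 of the 16 were higher, but 4 of 18 without control replicate 3. For shRNA B minus shRNA A, 0 became 21 without a filter, 123 with DESeq2 and 0 to 110 without single libraries. The exact p of Oas3, 0.155 over all hairpin libraries, stayed between 0.125 and 0.321.

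With the replicate number as a block, Oasl2 for shRNA B minus control had an adjusted p of 0.0656 and Oasl1 one of 0.0260, so the 1 member called was then Oasl1. The block gave 31 genes for the mean of both hairpins and 1 for shRNA B minus shRNA A. Same-numbered libraries correlated between -0.13 and 0.27 after removal of group means, so the numbers were not taken to pair the mice. Without a filter the 1 member called was Oas3, and Oasl2 had an adjusted p of 0.0757; with only the groups compared it was Oasl1, and Oasl2 had 0.0612. The cause of these changes was not tested. Depth limits Oas3 and Oasl1, with 0 to 3 reads in each control. Scaling by library totals moved the median of all genes by at most 0.02 on the log2 scale.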
